A study of Mus musculus with 8 samples.

Results

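Memory-type CD4+ T cells of the kidney were set against those of the spleen in lupus-prone mice, gene by gene. The comparison used 4 of the 8 libraries of the series, the 2 from kidney CD4+ cells and the 2 from spleen CD4+ cells, and it covered 10040 of 13341 genes, those whose level reached 10 or more in 2 or more of these 4 libraries. All donors were MRL/lpr mice aged 14 weeks, so both organs' cells carried the lpr mutation of the death receptor gene Fas, and no wild-type group was part of the series. Cells were sorted as CD44hi, meaning high surface CD44, which marks T cells that have met antigen. The labels name no separate animals or pools, so p-values measure only the spread between these samples, which may be technical. A level is the deposited normalised signal, a read count divided by a factor of its library, and values are listed as kidney replicates 1 and 2, then spleen replicates 1 and 2. The 4 libraries held 8880902, 7483737, 11169003 and 7477544 reads.

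CD4+ T cells help other immune cells through cytokines, and they divide into types by the cytokines they make, such as interferon gamma for type 1 and interleukin 17 for type 17 helper cells. In lupus nephritis such cells enter the kidney, and part of them can stay there as resident cells that lose the receptors used to travel through lymph nodes. In MRL/lpr mice the Fas defect lets lymphocytes pile up in spleen and lymph nodes. Cyclic AMP is a second messenger that activates factors of the CREB and CREM family on short promoter motifs, and NR4A genes are among their classical targets.

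The promoters below are shown because they hold TGACG, the core of the cyclic AMP response element, and belong to genes that the results describe. Nr4a3 and Nr4a2 did not pass the test given below. Each is the 250 bases before the gene's start, from RefSeq on GRCm38.p6, written 5′ to 3′ on the gene's strand. Capitals mark TGACG or, where the core lies on the other strand, CGTCA.
Nr4a3 (chr4:48045055-48045304, plus strand): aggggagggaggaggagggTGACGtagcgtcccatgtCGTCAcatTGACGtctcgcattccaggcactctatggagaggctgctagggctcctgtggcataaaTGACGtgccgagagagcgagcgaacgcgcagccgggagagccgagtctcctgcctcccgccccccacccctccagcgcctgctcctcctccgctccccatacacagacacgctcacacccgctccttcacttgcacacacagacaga
Nr4a2 (chr2:57124004-57124253, minus strand): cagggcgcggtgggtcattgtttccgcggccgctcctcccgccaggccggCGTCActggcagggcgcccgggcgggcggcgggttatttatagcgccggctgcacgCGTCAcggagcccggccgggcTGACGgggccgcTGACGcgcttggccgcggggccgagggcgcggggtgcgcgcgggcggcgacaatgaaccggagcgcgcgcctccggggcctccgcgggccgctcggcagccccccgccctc
Il17a (chr1:20730655-20730904, plus strand): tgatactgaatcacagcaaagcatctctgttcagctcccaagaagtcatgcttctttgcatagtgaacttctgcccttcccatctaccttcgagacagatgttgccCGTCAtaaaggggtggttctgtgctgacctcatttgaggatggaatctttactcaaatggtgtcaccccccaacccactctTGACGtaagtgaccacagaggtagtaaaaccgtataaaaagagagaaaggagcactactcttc
H2-Aa (chr17:34287824-34288073, minus strand): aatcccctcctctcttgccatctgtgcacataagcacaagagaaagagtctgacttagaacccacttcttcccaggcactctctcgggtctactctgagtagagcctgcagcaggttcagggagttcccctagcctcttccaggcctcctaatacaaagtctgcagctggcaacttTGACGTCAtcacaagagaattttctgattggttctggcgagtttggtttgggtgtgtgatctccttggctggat
Nr4a3 and Nr4a2 held 4 cores each, as did Nr4a1, not printed, and Il17a held 2. In H2-Aa the capitals overlap as the full palindrome TGACGTCA. Of 32851 such windows 17.8% held at least 1 core, 0.137% held at least 4 and 1.55% held the palindrome. Among symbols rather than windows, 32.1% of the 7763 tested genes with a window held a core, as did 13 of the 21 cyclic AMP pathway genes with a window, or 61.9%. The tissue residency list was also high, at 13 of 24 (54.2%). Both lists hold Crem, so these shares are not independent. Whether a high share is particular to the cyclic AMP list cannot be told from them. Of the genes called higher 10 of 68 with a window held a core (14.7%), and of those called lower 1 of 17 (5.88%), both below the share of tested genes. The windows of Csf2, Tmem176b, Fosl2, Ccl8 and H2-Eb1 held 0 cores. A match is a string of letters and not a measured binding site.

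The sorted marker followed the label. Cd4 read 2224 and 1686 in kidney and 1694 and 1365 in spleen. Those ranges overlapped. Cd8a, the marker of the other sorted lineage, read 103 and 5.20 in kidney CD4+ cells and 1.11 and 2.59 in spleen, and Cd8b1 read 62.0, 43.7, 110 and 81.1. Cd44, the sorting marker, read 1563 and 1011 in kidney against 637 and 586 in spleen, a difference that did not pass (log2 difference 1.04 ± 0.39 SE, limma adjusted p = 0.405). Fas itself read 192, 492, 520 and 626. Cd3e, a chain of the T cell receptor complex, read 5456 in kidney replicate 1 but 637 in replicate 2, against 6826 and 5928 in spleen.

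The kidney replicates were unlike each other. Among 4272 genes with a mean level of at least 100 in both organs, 895 lay at least 4-fold apart between the kidney replicates, 860 of them higher in replicate 1, whereas 2 lay that far apart between the spleen replicates. Cxcr6, the receptor for the chemokine CXCL16, shows the pattern at 25829 and 1583 against 2426 and 2553. Pdcd1 (PD-1), a brake on T cell activation, read 11103 and 580 against 2542 and 2205. For both genes 1 kidney library lay above spleen and the other below it, so no direction is drawn from them. The table also held Ltb, a lymphotoxin gene that T cells are known to express, at only 1.41 to 8.63 and Tgfb1 at 0 to 9.37 over the 4 libraries, so a low level in this table is not taken as absence.

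**Figure D1:**
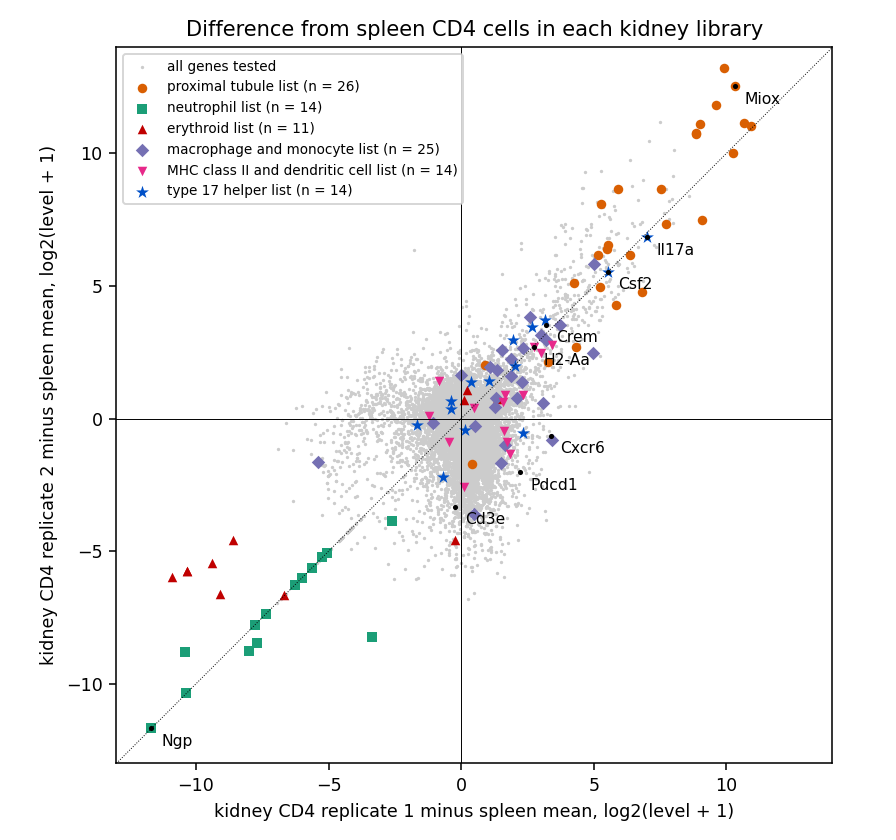
Each point is a gene, placed by the difference of its log2(level + 1) from the spleen CD4 mean in kidney replicate 1 (horizontal axis) and in kidney replicate 2 (vertical axis). The dotted line marks equal differences. Symbols mark gene lists and black dots the genes named. Crem, Il17a, Csf2, H2-Aa and Ngp lie near the line, while Cxcr6, Pdcd1 and Cd3e differ between the kidney replicates. Miox is above spleen in both but higher in replicate 2.

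Most called differences were in genes that one organ's libraries barely held. By limma at an adjusted p below 0.05, 89 genes were higher in kidney (0.886% of 10040) and 19 lower (0.189%), and 910 had an unadjusted p below 0.05. Without overlap between the groups 1631 genes were higher (16.2%) and 1553 lower (15.5%), and the nearest libraries were at least 4-fold apart for 294 (2.93%) and 114 (1.14%). List counts below are to be read against these shares of all genes. Of the 89 genes that rose, 64 had 0 reads in both spleen libraries and 77 were under 10 there. Among them 21 were on marker lists of other cells, 9 on T cell lists only and 59 on no list. The 9 included Ak4, Crem, Csf2, Hilpda, Il17a, Mxi1, Ndrg1 and Tmem176b. Of the 89, the 12 with levels of at least 10 in all 4 libraries included Crem, Tnfsf9, Tmem176b, Ndrg1, Mxi1, Hilpda, Ccl8, C1qb, H2-Aa, H2-Ab1 and H2-Eb1. No called gene had overlapping groups. The median log2 difference over all genes tested was -0.10.

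Crem had the smallest adjusted p of the 9 risen genes on T cell lists only. It encodes CREM and, from an inner promoter, the repressor ICER, both regulators of the cyclic AMP response. Crem read 4455 and 5593 in kidney and 444 and 524 in spleen. Both kidney libraries were far above both spleen libraries, a 10.4-fold higher mean (log2 difference 3.37 ± 0.39 SE, adjusted p = 0.00682). The 2 kidney replicates, unlike at many genes, were close here. Crem lost its call when the 4 CD4 libraries were fitted alone (adjusted p = 0.116) and without either spleen replicate (0.139 and 0.122).

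None of the NR4A genes, which encode orphan nuclear receptors that T cells induce after stimulation, passed the test. Nr4a3 read 243 and 496 in kidney against 36.6 and 45.7 in spleen (adjusted p = 0.135). Nr4a2 read 228 and 177 against 52.1 and 26.7 (adjusted p = 0.0649). In both, kidney was higher without overlap, and these are the promoters with 4 cores printed above. Nr4a1 read 766 and 160 against 176 and 200, so its groups overlapped (adjusted p = 0.789). Fosl2, an AP-1 subunit, read 384 and 213 against 74.3 and 39.7 (adjusted p = 0.0818). Of 28 tested genes of the cyclic AMP pathway list, 1 rose, Crem, and 0 fell, with a list median of 0.35. Among the 28, 1 passed the level filter only through kidney and so had to be higher. The groups did not overlap for 10 that were higher and 5 that were lower, against 16.2% and 15.5% of all genes. Among the lower ones were Crtc2, a CREB coactivator, at 3.52 and 45.8 against 53.8 and 70.7, and Ptger2, a prostaglandin E2 receptor that raises cyclic AMP, at 133 and 102 against 192 and 197. Creb1 read 383, 210, 364 and 335 and overlapped.

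Type 17 helper genes included 3 of the rises. Il17a, the signature cytokine of these cells (mm9 chromosome 1, 20720986 to 20724577, plus strand), read 128 and 113 in kidney and had 0 reads in both spleen libraries. That is at least 120-fold higher, counted against a floor of 3 reads over both spleen libraries (adjusted p = 0.0284). Csf2 encodes the growth factor GM-CSF (chromosome 11, 54060773 to 54063169, minus strand) and read 74.7 and 74.9 in kidney against 1.66 and 0. The kidney libraries agreed closely, and the ratio of reads was 73.9 (95% exact counting interval 24.9 to 362, adjusted p = 0.0188). Floors and intervals cover counting error only, since reads without molecular identifiers are not independent molecules.

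Tmem176b encodes a membrane channel protein that type 17 cells and also myeloid cells express (chromosome 6, 48783810 to 48791373, minus strand). It read 1101 and 1624 in kidney against 156 and 95.8 in spleen. Both kidney libraries were above both spleen libraries, 10.8-fold by the mean (log2 difference 3.44 ± 0.44 SE, adjusted p = 0.0117). Its neighbour Tmem176a, on the opposite strand from 48791482 to 48795363, read 592 and 1029 against 112 and 77.6 (adjusted p = 0.0557). Rora, a transcription factor of type 17 cells, read 320 and 312 against 86.5 and 69.0 (adjusted p = 0.0587). Ccr6, a chemokine receptor of type 17 cells, lay the other way at 78.9 and 27.1 against 178 and 92.3 (adjusted p = 0.710).

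Over the type 17 list, 14 genes were tested, of which 3 rose and 0 fell. Without overlap 8 were higher and 1 lower, against 16.2% and 15.5% of all genes. The list median was 1.06, with 1.51 in kidney replicate 1 and 1.39 in replicate 2. Of these 14 genes 3 passed the level filter only through kidney, so they had to differ. Il17f read 9.87 and 29.1 in kidney and 0 in spleen, and Il23r, the interleukin 23 receptor, 9.16 and 2.08 against 0; neither passed the filter. The call of Il17a was lost in 9 of 20 other settings (adjusted p up to 0.294), among them edgeR's count test (0.0694) and all fits without a spleen library, CD4+ or CD8+. That of Csf2 was lost in 6 of 19 and that of Tmem176b in 4 of 20.

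A costimulatory ligand also rose. Tnfsf9, the ligand of the costimulatory receptor 4-1BB, which activated T cells and antigen-presenting cells make, read 515 and 880 against 73.7 and 110. Both kidney libraries were above both spleen libraries, 7.58-fold by the mean (log2 difference 2.89 ± 0.44 SE, adjusted p = 0.0223). Tnfsf9 was chosen after its values were seen. Genes of T cell receptor signalling had a list median of -0.07 over 27 tested, with 0.23 in kidney replicate 1 and -0.32 in replicate 2. Of the 27, 1 rose, left without values here, and 0 fell, where 0.886% and 0.189% of all genes were called. Without overlap 3 were higher and 4 lower. Those counts were near the 16.2% and 15.5% of all genes. Lat, the adaptor that gathers signalling proteins at the receptor, read 5507 and 1964 against 6237 and 7124 (adjusted p = 0.614).

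**Figure D2:**
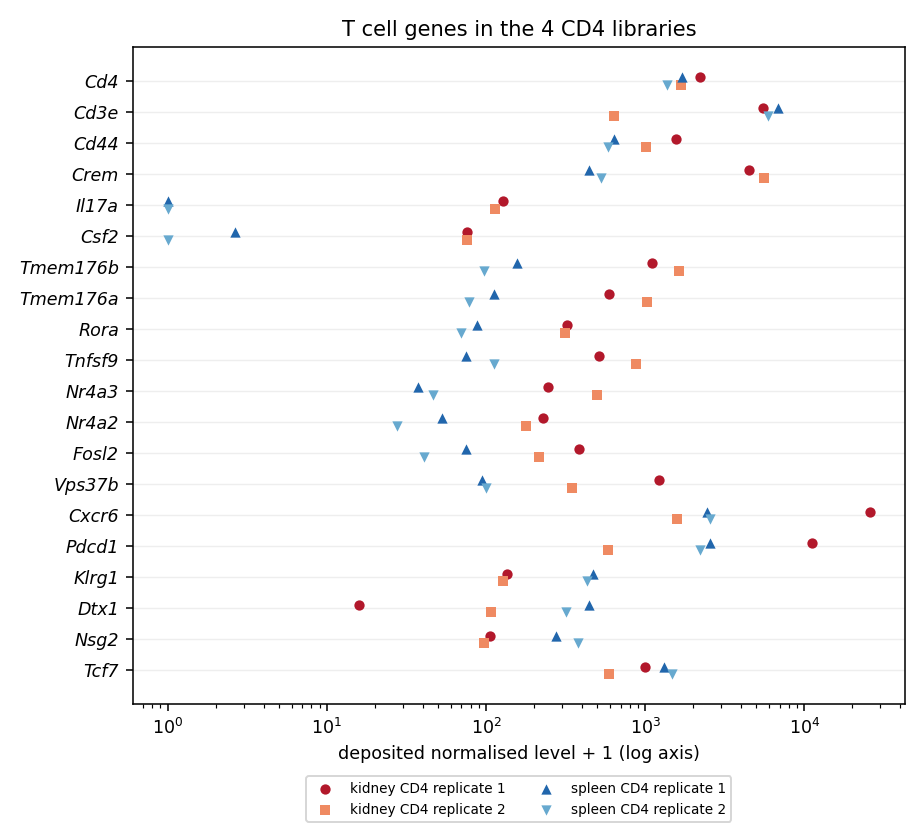
Deposited level plus 1 (log axis) of 20 T cell genes in each of the 4 CD4 libraries. Crem, Tmem176b and Tnfsf9 show both kidney libraries above both spleen libraries, Il17a has 0 reads in spleen, Klrg1 and Nsg2 lie lower in kidney, and Cd3e, Cxcr6 and Pdcd1 separate the kidney replicates from each other.

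Tissue residency genes leaned higher in kidney and recirculation genes lower, mostly without passing. Of 35 tested residency genes 20 were higher and 4 lower without overlap, against the 16.2% and 15.5% of all genes given above. Among the 35, 1 passed the level filter only through kidney and 1 only through spleen, so their direction was fixed. Of the 35, 1 rose, Crem, which the cyclic AMP list also holds. The list median was 0.90, with 1.26 in kidney replicate 1 and 0.46 in replicate 2. Vps37b, a sorting protein for membrane cargo, read 1224 and 348 against 93.7 and 98.3 (adjusted p = 0.0690), and Odc1, the first enzyme of polyamine synthesis, read 330 and 472 against 117 and 102 (adjusted p = 0.0828). Itga1, the alpha chain of a collagen-binding integrin, was at 20.4 and 10.4 with 0 reads in spleen and did not pass the test. It passed the level filter only through kidney, so it had to be higher. Cd69, the usual residency marker, read 11039 and 1494 against 7786 and 7209, so its groups overlapped.

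Among 32 tested recirculation genes 14 were lower and 1 higher without overlap, and 0 were called in either direction by limma. The list median was -0.66, with -0.32 in kidney replicate 1 and -0.70 in replicate 2. Tcf7, a factor of naive and memory T cells, read 1002 and 587 against 1305 and 1471 (adjusted p = 0.564). Klf2, which drives expression of lymph node receptors, read 400 and 2146 against 1128 and 1078, and S1pr1, the exit receptor it controls, 999 and 331 against 729 and 739; both overlapped. Nsg2, found in recent thymic emigrants, read 105 and 95.7 against 273 and 378 (adjusted p = 0.128). The gene higher without overlap was Il7r, the interleukin 7 receptor, at 1572 and 1299 against 896 and 822 (adjusted p = 0.645).

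No gene of the T cell lists fell by the test. The 19 called genes that were lower comprised 11 markers of other cells and 8 on no list. Of these 8, Hp followed the rule for named genes and the following were chosen after their values were seen. Gpr15, a homing receptor of T cells for the large intestine, had 0 reads in kidney and read 57.6 and 31.1 in spleen, at least 37.5-fold lower in kidney (adjusted p = 0.0298). Gabrr2, a GABA receptor subunit, had 0 reads against 98.1 and 95.8, at least 77.1-fold lower (adjusted p = 0.0298). Dcaf4, an adaptor of ubiquitin ligases, was held by both organs at 13.4 and 7.28 against 216 and 152, 17.8-fold lower (log2 difference -4.06 ± 0.51 SE, adjusted p = 0.0105). The others were Ckap2, Fcna, Ifitm6 and Pald1, all with 0 kidney reads. Genes here with 0 kidney reads passed the level filter only through spleen, so they had to be lower.

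Several T cell genes lay lower by wide margins without passing. Klrg1, a receptor of effector T cells, read 135 and 126 against 466 and 428 (adjusted p = 0.0538). Kidney levels were close to each other and well under spleen. Dtx1, a regulator of Notch signals, read 14.8 and 106 against 444 and 316 (adjusted p = 0.138), and Crtam, an adhesion receptor of cytotoxic-type CD4+ cells, read 262 and 30.2 against 574 and 569 (adjusted p = 0.285). On the cytotoxic list 0 of 26 genes were called and the median was 0.17. Without overlap 9 were higher and 4 lower, against 16.2% and 15.5% of all genes. Ctsw, a protease of cytotoxic cells, read 8213 and 10741 against 2057 and 2813 (adjusted p = 0.0538) and Klrk1, the receptor NKG2D, 335 and 391 against 96.4 and 121 (adjusted p = 0.0520). Gzmb lay lower at 1705 and 1940 against 2356 and 3248 (adjusted p = 0.697).

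Helper and regulatory genes other than type 17 showed no call. Of 18 type 1 genes 10 were higher and 1 lower without overlap, against 16.2% and 15.5% of all genes, with a median of 0.70. Tbx21, the type 1 master factor, read 92.3 and 212 against 39.3 and 45.7 (adjusted p = 0.276), and Ifng read 4545 and 5586 against 3275 and 3582 (adjusted p = 0.735). Ccl3, a chemokine for macrophages and T cells, read 3423 and 8393 against 1953 and 2232 (adjusted p = 0.400). Of 25 cytokine genes, 2 rose, Il17a and Csf2, and 13 were higher and 1 lower without overlap (median 0.87); these 2 had passed the filter only through kidney. Il21 read 121 and 240 against 85.3 and 88.9 (adjusted p = 0.840), while Il10 overlapped at 1074 and 596 against 1134 and 1017.

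For regulatory T cells, 3 of 19 genes were higher and 5 lower without overlap, against 16.2% and 15.5% of all genes (median -0.06). Foxp3, their master factor, read 1080 and 340 against 1665 and 1009 and overlapped. Izumo1r, the folate receptor 4 of regulatory and follicular cells, read 5230 and 4728 against 10222 and 9742 (adjusted p = 0.363), whereas Tnfrsf4, the costimulatory receptor OX40, read 17913 and 22169 against 9376 and 10354 (adjusted p = 0.314). The follicular helper list (median -0.07 over 16 genes) and the list of inhibitory receptors (median -0.05 over 19) had kidney replicates on opposite sides, at 0.53 and -0.41, and at 0.59 and -0.71. Cxcr5, the follicle-homing receptor, read 272 and 7.28 against 372 and 282. Of the T cell lists, chemokine receptors split most, with medians of 1.14 and -1.11 in the 2 kidney replicates over 14 genes.

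The remaining T cell lists had few or no calls. Their counts without overlap stand against 16.2% higher and 15.5% lower over all genes. TGF-beta response genes had a median of 0.23 over 17, with 0.81 in kidney replicate 1 and -0.24 in replicate 2. Without overlap 5 were higher and 1 lower. Among the higher was Cdh1, E-cadherin, at 57.1 and 45.8 against 11.6 and 6.04 (adjusted p = 0.202). Immediate early genes (median -0.24 over 25) had 5 higher and 6 lower, and their members went both ways. Dusp2, a phosphatase induced by activation, read 815 and 846 against 233 and 284 (adjusted p = 0.122), and Zfp36, which destabilises cytokine transcripts, 1698 and 548 against 3284 and 2453 (adjusted p = 0.339). Interferon response genes (median -0.26 over 33), cell cycle genes (-0.42 over 35) and glycolysis genes (-0.46 over 21) had 0 calls each, and in each the kidney replicates had medians of opposite sign. Ube2c, needed for exit from mitosis, read 8.46 and 4.16 against 55.4 and 85.4 (adjusted p = 0.0831). It was 1 of 4 cell cycle genes that passed the level filter only through spleen and so had to be lower.

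**Figure D3:**
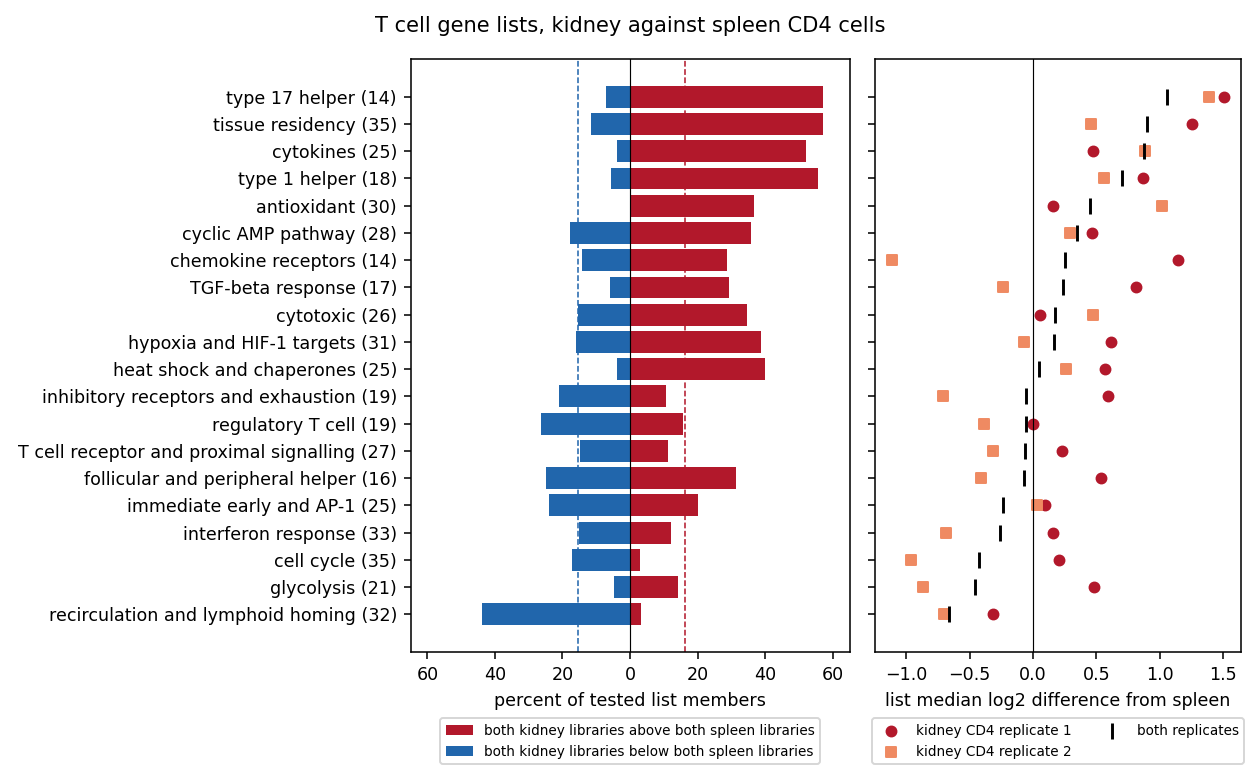
Left, percent of each T cell list's tested genes (number in parentheses) whose kidney libraries both lay above (red) or below (blue) both spleen libraries; dashed lines mark the 16.2% and 15.5% of all tested genes. Right, the list's median log2 difference from the spleen mean for kidney replicate 1, replicate 2 and both. Type 17 and residency lists lie right of 0 in both replicates and recirculation genes left of it, while chemokine and inhibitory receptors have the replicates on opposite sides.

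Hypoxia and HIF-1 targets, the genes cells switch on when oxygen is short, held 4 of the rises. Ndrg1, a stress-response gene (chromosome 15, 66760883 to 66801202, minus strand), read 398 and 1334 in kidney against 33.8 and 34.5 in spleen, 25.4-fold higher (log2 difference 4.38 ± 0.59 SE, adjusted p = 0.0136). Mxi1, an antagonist of MYC, read 299 and 243 against 33.3 and 26.7, 9.04-fold higher (adjusted p = 0.0352). Hilpda, which blocks fat breakdown in lipid droplets, read 1627 and 2975 against 531 and 481, 4.55-fold higher (adjusted p = 0.0454). All of these were present in spleen cells and did not overlap. Ak4, a mitochondrial adenylate kinase that tubule cells also express, had 0 reads in spleen and 35.2 and 198 in kidney (adjusted p = 0.0253). Of 20 other settings the call was lost in 13 for Hilpda, 8 for Ak4, 7 for Mxi1 and 3 for Ndrg1, with adjusted p up to 0.425, 0.217, 0.347 and 0.170. In each the losses included the fit of the 4 CD4 libraries alone and both fits without a spleen CD4 library. Over 31 tested genes the median was 0.16, but the kidney replicates lay on opposite sides, at 0.61 in replicate 1 and -0.07 in replicate 2. Without overlap 12 were higher and 5 lower, against 16.2% and 15.5% of all genes. Of the 31, 4 passed the filter only through kidney and so had to be higher. Hif1a read 662 and 595 against 367 and 271 (adjusted p = 0.543), and Slc2a1, the glucose transporter that HIF-1 induces, overlapped at 250 and 51.0 against 108 and 95.8.

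Antioxidant genes had 11 of 30 higher and 0 lower without overlap (median 0.45), against 16.2% and 15.5% of all genes. Of the 11, Gpx3, Gsta4 and Mgst3 passed the filter only through kidney and so had to be higher. The 1 rise was Gpx3, a secreted glutathione peroxidase made by proximal tubule cells and also on that list, at 3967 and 5529 against 4.99 and 0, 1904-fold higher (adjusted p = 0.00267). Gstm1, a glutathione transferase, read 197 and 3509 against 38.8 and 43.1 (adjusted p = 0.235), and Prdx6, a peroxiredoxin, 7592 and 8388 against 4067 and 4226 (adjusted p = 0.362). Heat shock genes had 10 of 25 higher and 1 lower without overlap (median 0.05), with 0 calls. Hspa1b, an inducible HSP70 gene, read 513 and 2453 against 18.3 and 138, and Dnajb1, its cochaperone, 808 and 842 against 187 and 232 (adjusted p = 0.285 and 0.276). Hspa1b is a near-identical copy of Hspa1a, so the split of reads between them is uncertain.

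Proximal tubule RNA marked the kidney libraries. The 37 list genes in the table summed to 15554 and 37637 in kidney against 727 and 576 in spleen, and kidney replicate 2 was the higher. Miox, which starts inositol breakdown in tubule cells, read 1281 and 5964, against no spleen read, which is at least 3133-fold (adjusted p = 0.000987). Fxyd2, a regulator of the sodium pump, read 959 and 9501, again against 0 reads, or at least 4355-fold (adjusted p = 0.00190). Keg1, a kidney-specific acyltransferase-like gene, read 1207 and 1044, at least 1127-fold above spleen (adjusted p = 0.000987). Fbp1, which works in gluconeogenesis, read 781 and 3666, at least 1922-fold above spleen (adjusted p = 0.00186).

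Of 26 tested tubule markers 17 rose, 0 fell and 25 were higher without overlap, but 24 of the 26 passed the filter only through kidney and so had to differ. Lower members of the list were the endocytic receptor Lrp2, at 44.4 and 83.2, and the tubule master factor Hnf4a, at 45.8 and 93.7, both with 0 reads in spleen. Slc5a2, a glucose transporter of the early tubule, was at 43.0 and 0, and the later-segment gene Slc7a13 had 0 reads in all 4 libraries. Distal nephron markers were lower in level, with Umod, which encodes uromodulin, at 43.0 and 59.3 and Klk1, kallikrein, at 68.4 and 348. Of 11 tested 0 were called (median 2.13), and 5 passed the filter only through kidney and so had to be higher. Endothelial and stromal markers were scarcely held: 4 of 14 in the table were tested and 0 called.

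Most called rises that were scarce in spleen were also held by the kidney CD8+ libraries. Of the 89 genes that rose, 74 were under 10 in all 4 spleen libraries of both cell types, and 73 of those 74 were at least 10 in both kidney CD8+ libraries, whose tubule sums were 11730 and 40399. The exception was Il17a, at 14.4 and 1.54 there. Among all tested genes 304 were under 10 in those spleen libraries, and 158 of the 304 met the same condition in kidney CD8+ cells. Csf2 met it too, at 80.6 and 123, so the condition is not particular to tubule genes. The calls themselves used the spread of the CD8+ libraries, so the count is not independent of them. The source of these rises was not tested. Unlisted rises included Slc6a19, a tubular amino acid transporter, at 31.7 and 44.7, and Dab2, an endocytic adaptor of tubule cells, at 76.1 and 112. Both had 0 reads in spleen CD4+ cells and were chosen after their values were seen. They passed the level filter only through kidney, so they had to be higher. In bulk RNA a smaller number of cells and less RNA per cell cannot be told apart, and the part of tubule RNA in Ak4 and Gpx3 was not tested.

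Of the macrophage and monocyte genes 1 rose, C1qb. The 30 macrophage and monocyte genes in the table summed to 32652 and 20311 in kidney and 20201 and 18893 in spleen. Both kidney sums were above both spleen sums, but kidney replicate 2 only narrowly above spleen replicate 1. In the CD8+ libraries the sums ran the other way, at 44588 and 42778 in kidney against 55702 and 57143 in spleen. C1qb, a chain of the complement starter C1q that macrophages make (chromosome 4, 136436044 to 136442102, minus strand), read 2036 and 2256 against 216 and 290. Both kidney libraries were above spleen, 8.49-fold by the mean (log2 difference 3.09 ± 0.45 SE, adjusted p = 0.0183). Its partners went the same way without passing, C1qa at 247 and 317 against 61.0 and 38.8 (adjusted p = 0.138) and C1qc at 206 and 176 against 32.1 and 14.7 (adjusted p = 0.0901). The call of C1qb was lost in 4 of 20 other settings (adjusted p up to 0.230), among them both fits without a spleen CD4 library.

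Of 25 tested macrophage genes 1 rose and 0 fell (median 1.59). Without overlap 15 were higher and 2 lower, against 16.2% and 15.5% of all genes. Among the 25, 3 passed the filter only through kidney and so had to be higher. Ms4a7, a macrophage membrane protein, read 317 and 561 against 8.31 and 9.49 (adjusted p = 0.0670), and Adgre1, which encodes the F4/80 antigen, 167 and 29.1 against 4.43 and 4.31 (adjusted p = 0.244). Lyz2, the lysozyme gene of myeloid cells, read 3812 and 3159 against 776 and 1371 (adjusted p = 0.183). Defining genes near 0 were Itgam, at 0, 6.24, 5.54 and 6.04, and Cd163, at 0, 0, 0.554 and 3.45. Ctsb, a lysosomal protease that T cells also express and a large part of the sum, read 13735 and 807 against 10950 and 8701.

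Chemokines of the myeloid kind rose beside C1qb. Ccl8 attracts monocytes and T cells and read 679 and 917 against 51.0 and 49.2, 15.9-fold higher (log2 difference 3.95 ± 0.55 SE, adjusted p = 0.0157). Its call was lost in 4 of 20 other settings (adjusted p up to 0.175), among them both fits without a spleen CD4 library. Ccl12, a mouse monocyte chemokine, read 86.7 and 165 against 0 reads, at least 117-fold above spleen (adjusted p = 0.0160). Cxcl16, the ligand of CXCR6, read 162 and 88.5 against 0 reads, at least 131-fold above spleen (adjusted p = 0.0105). Ccl12 and Cxcl16 were chosen after their values were seen. With 0 spleen reads both passed the level filter only through kidney, so they had to be higher. Of the macrophage markers given above, C1qb, C1qa, C1qc, Ms4a7, Adgre1 and Lyz2 were higher in both kidney libraries, like these genes, Tmem176b and Tnfsf9. Ctsb overlapped, and Itgam and Cd163 were near 0. Of the 25 tested macrophage genes 8 overlapped and 2 were lower. The part of macrophages in those results was not tested.

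MHC class II genes, which present peptides to CD4+ T cells and which mouse T cells themselves hardly express, rose as a trio. H2-Aa (chromosome 17, 34406276 to 34424772, minus strand) read 7394 and 7220 in kidney and 1177 and 1047 in spleen. Replicates were close within each organ, and the mean was 6.57-fold higher (log2 difference 2.72 ± 0.35 SE, adjusted p = 0.0125). H2-Ab1, its beta-chain partner, read 4507 and 2835 against 553 and 317, 8.44-fold higher (adjusted p = 0.0223). H2-Eb1, the beta chain of the other isotype, read 4640 and 3158 against 553 and 592, 6.81-fold higher (adjusted p = 0.0188). Of 20 other settings the call was lost in 5 for H2-Aa and in 6 each for H2-Ab1 and H2-Eb1, with adjusted p up to 0.177, 0.281 and 0.217. The losses were in the fit of the 4 CD4 libraries alone, in each fit without 1 spleen library, CD4+ or CD8+, and, for H2-Ab1 and H2-Eb1, with library weights.

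The other antigen presentation genes did not follow the trio closely. Cd74, the invariant chain that class II needs for transport, read 9785 and 1627 against 3369 and 2646 and overlapped. H2-DMa, a peptide exchange factor, read 1458 and 1405 against 964 and 1153 (adjusted p = 0.803), and H2-Oa, its inhibitor, lay lower at 316 and 233 against 433 and 436 (adjusted p = 0.635). Cd86, a costimulatory ligand of antigen-presenting cells, read 572 and 341 against 208 and 158 (adjusted p = 0.295). Of 14 tested genes on the list 3 rose and 0 fell (median 0.50). Ciita, the master regulator of class II, was at 0, 6.24, 0.554 and 8.63, and the dendritic cell markers Itgax, at 3.52, 14.6, 0.554 and 6.90, and Zbtb46, at 4.23, 19.8, 0 and 2.59, were near 0. The part of dendritic cells or macrophages in the class II trio was not tested.

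Neutrophil genes ran the other way, present in spleen and nearly missing in kidney. The 21 genes in the table summed to 62.0 and 12.5 in kidney and 6047 and 10019 in spleen. Ngp, a granule protein of immature neutrophils, had 0 kidney reads and read 2613 and 4114 in spleen, at least 2538-fold lower in kidney (adjusted p = 0.000264). S100a9 and S100a8, the subunits of calprotectin, were at least 1023-fold lower (adjusted p = 0.000430) and lower by a ratio of reads of 1597 (95% exact counting interval 442 to 13193, adjusted p = 0.00105). Of 14 tested neutrophil genes 8 fell and 14 were lower without overlap, and 13 of the 14 passed the filter only through spleen. Ctsg had 0 reads in all 4 libraries, and Cxcr2 was at 1.41 in 1 kidney library and 0 in the others.

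Erythroid genes were also of the spleen. Summed levels were 914 and 1238 in kidney against 26169 and 20526 in spleen. Hba-a1, an alpha globin, read 3.52 and 137 against 9311 and 8189, 124-fold lower in kidney (adjusted p = 0.0330). Alas2, the first enzyme of heme synthesis in red cells, had 0 kidney reads against 145 and 69.9, at least 91.8-fold lower (adjusted p = 0.0105). It passed the level filter only through spleen, so it had to be lower. Of 20 other settings the call was lost in 9 for Hba-a1 and 6 for Alas2 (adjusted p up to 0.296 and 0.158), including each fit without 1 spleen library. Of 11 tested genes 3 fell, 7 were lower and 3 higher without overlap. The higher ones were Car2, Blvrb and Tfrc, which many other cells express. Globin genes are near-identical copies, and Hbb-b2 and Hbb-bt held the same values in every library, so their split is uncertain.

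B cell and plasma cell genes had 0 calls. B cell markers summed to 283 and 343 in kidney and 566 and 624 in spleen. Without overlap 5 of 8 tested were lower, against 15.5% of all genes (median -2.57). Among the 8, 2 passed the filter only through spleen and so had to be lower. Ms4a1, which encodes CD20, read 5.64 and 0 against 47.1 and 40.5 (adjusted p = 0.254). Jchain, the joining chain of secreted antibodies, read 729 and 399 against 1314 and 2094 (adjusted p = 0.237). Among natural killer and innate lymphoid genes 3 of 7 were higher without overlap and 0 were called; Klre1, a killer lectin-like receptor, read 57.1 and 71.8 against 16.6 and 22.4 (adjusted p = 0.150). The 1 tested platelet gene, Pf4, read 19.7 and 81.2 against 8.87 and 0 (adjusted p = 0.565). It passed the filter only through kidney and so had to be higher.

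**Figure D4:**
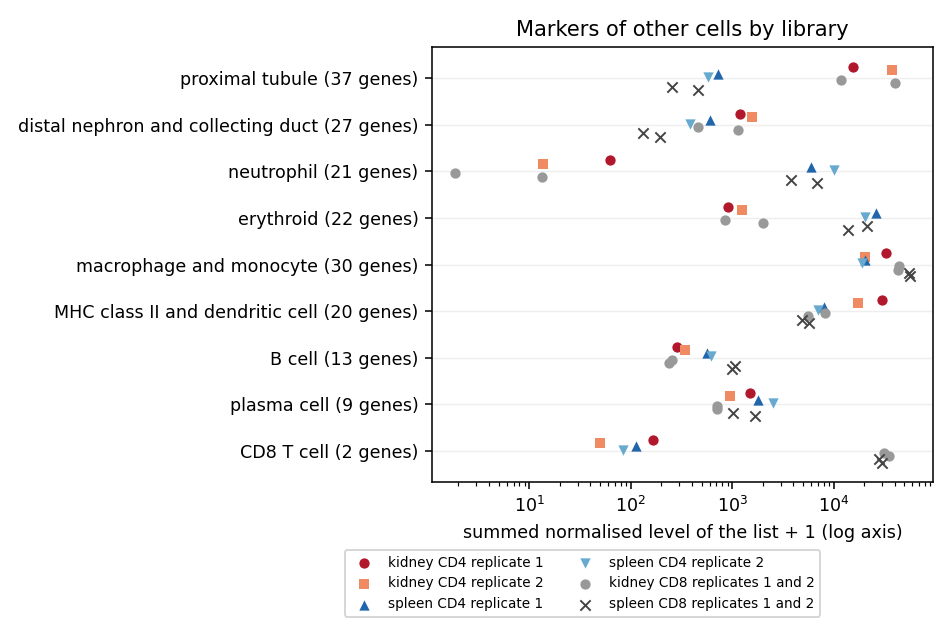
Summed level plus 1 (log axis) of the marker genes of 9 other cell types in each library, CD4 in colour and CD8 in grey and black. Tubule sums are 15554 and 37637 in kidney CD4 cells against 727 and 576 in spleen; neutrophil and erythroid sums run the other way, and class II sums are higher in kidney CD4 cells, at 29765 and 17243, than in the 6 other libraries.

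Genes that spleen cells also held can be ranked by the distance between the nearest libraries of the groups. At least 4-fold apart with all 4 libraries at 10 or more were 27 higher genes and 2 lower genes, Slpi, a protease inhibitor, and Slc25a33, a mitochondrial carrier. Ramp3, which pairs with receptors of the calcitonin family, read 1546 and 3029 against 136 and 248 (adjusted p = 0.108). Idh1, a cytosolic isocitrate dehydrogenase, read 395 and 333 against 53.2 and 18.1 (adjusted p = 0.0584). In Slpi the higher kidney level was 40.6 and the lower spleen level 172 (adjusted p = 0.565). The groups of these genes lay wide apart without a call, and their SEs on the log2 scale were 0.81, 0.68 and 1.12, against 0.39 for Crem.

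Kidney CD8+ cells of the same series were set beside the CD4+ cells. By the test of the difference between the organ effects of CD4+ and CD8+ cells, 0 genes passed with limma (smallest adjusted p = 0.999), and 323 had an unadjusted p below 0.05. Crem read 1895 and 3592 in kidney CD8+ cells against 149 and 166 in their spleen counterparts, and Tnfsf9 550 and 685 against 35.7 and 47.7. Set directly against kidney CD8+ cells, Il17a was higher in kidney CD4+ cells by 4.28 on the log2 scale (adjusted p = 0.297) and H2-Aa by 2.21 (adjusted p = 0.0753). H2-Aa read 2041 and 1213 in kidney CD8+ cells and 815 and 889 in spleen CD8+ cells. Summed class II levels were 8287 and 5533 in kidney CD8+ cells against 29765 and 17243 in kidney CD4+ cells.

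The spread behind these tests was pooled over the 4 groups of the series (2 libraries each, 8.28 degrees of freedom), so for the unlike kidney pair it can be too small. With the 4 CD4 libraries fitted alone 22 genes were higher and 5 lower, and all 27 of these were among the calls above.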

How the data were processed

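The values are a signal, gene by gene, that the authors deposited already normalised for all 8 libraries, built on mm9 per the labels from SMART-Seq v4 libraries without strand information. The submitters' processing notes list the aligners STAR 2.5.3 and TopHat2 2.1.0. For the counting tool and gene annotation, nothing is given in the sources used here. Every signal value was a whole number of reads divided by 1 factor per library (tolerance 1e-06), and 0 columns went unused.

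Levels were transformed to log2(level + 1) and fitted by limma 3.58.1 under R 4.3.3 (means of the 4 groups over 8 libraries, contrast of kidney and spleen CD4+ cells, empirical Bayes with trend, 2-sided, Benjamini-Hochberg over 10040 genes). This scale understates the change of low genes. Genes entered if 2 or more of the 4 CD4 libraries reached a level of 10. edgeR 4.0.16 and DESeq2 1.42.0 on recovered reads, other filters, scalings and left-out libraries were alternatives, and the fit was tested on simulated data.

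Named genes were the 5 markers Cd4, Crem, Il17a, Tmem176b and H2-Aa, up to 10 of the largest called changes per direction, up to 12 per direction with the widest gap between groups, called and leading members of the lists, and a set of known T cell genes. Other genes given with values were chosen after their values were seen. Some genes picked by this rule are left without values here. Members and gene lists were chosen with earlier results of these data known. Positions are from GENCODE on mm9, with 147 of 157 named genes found, and promoters from RefSeq. Hbb-b2 and Hbb-bt were among 282 genes holding the same values as another gene.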

Additional observations from a re-analysis of the deposited data

How the results depend on the processing

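The counts of genes higher and lower in kidney, 89 and 19, became 22 and 5 with the 4 CD4 libraries alone and 24 and 6 with library weights. The edgeR test gave 46 and 11, DESeq2 gave 253 and 79, and 46 and 11 remained in number under a mean level of at least 50 over the 4 CD4 libraries. All 57 edgeR calls were among the 108 of limma, and DESeq2 called all 108. Leaving out 1 library in turn gave 16 to 796 higher and 3 to 1570 lower genes. The highest counts came without kidney CD4 replicate 1 (796 and 1570), and without replicate 2 they were 174 and 185; leaving out spleen CD4 replicate 1 gave 17 and 6, and replicate 2 gave 16 and 3. The spleen CD8 replicates, left out in turn, gave 45 and 9, then 45 and 10. A lone library was assumed to vary like the other groups. Counts of genes whose groups did not overlap fell from 1631 to 955 and from 1553 to 928 with a mean level of at least 50, and ranged from 2254 to 4619 and from 2190 to 4713 with 1 CD4 library left out. Same-numbered replicates did not deviate together (correlation 0.0733 for kidney and spleen CD4, -0.182 to 0.0733 over 6 pairs of groups). These correlations cannot settle whether samples were paired, since the unlike kidney CD4 pair could hide it and the labels do not say. With the replicate block 77 genes were higher and 14 lower. The calls of Il17a (adjusted p = 0.0529), Mxi1, Hilpda and Wfdc21 were among those lost.

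Of 153 named genes with values 43 were called; 12 of these kept the call in all 20 settings, 0 reversed, and 73 of the 110 others were called in at least 1 setting. The log2 difference of 12 genes, 0 of them called, changed sign. With 1 library left out in turn the values ran from -2.33 to 0.56 for Cd69, -1.58 to 0.74 for Cxcr3, -0.65 to 3.38 for Cxcr6, -0.30 to 0.10 for Ehd3, -2.95 to 0.45 for Eno1, -0.85 to 0.000287 for Il10, -1.46 to 0.96 for Klf2, -3.79 to 0.51 for Klra3, -2.03 to 2.23 for Pdcd1, -0.46 to 0.32 for Pecam1, -1.15 to 0.44 for S1pr1 and -4.74 to 0.40 for Synpo. A kidney CD4 library decided the sign in each, and spleen CD4 replicate 2 also did for Pdcd1 and Pecam1. Klf2 was at 0.27 with edgeR and 0.35 with DESeq2, and Pecam1 at 0.046 with DESeq2. The median of all genes moved from -0.10 to 0.02 with edgeR and 0.06 with DESeq2. The cause of these changes was not tested. The medians of the type 17, type 1, residency, recirculation, cyclic AMP, antioxidant and cytokine lists kept their sign in all 20 settings; that of T cell receptor genes flipped in 4, follicular genes in 7, regulatory genes in 4, inhibitory receptors in 4, immediate early genes in 2, chemokine receptors in 2, and in 1 each for cytotoxic, TGF-beta, hypoxia, glycolysis, interferon, cell cycle and heat shock genes. Depth limits genes at 0: 3 reads over both libraries of a group was the floor.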
